A study of Mus musculus with 12 samples.

Results

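Peroxisomes are small organelles that take in very-long-chain, branched-chain and some polyunsaturated fatty acids as coenzyme A esters and shorten them by beta-oxidation, the work that mitochondria do for most other fatty acids. ABC transporters of subfamily D carry the esters across the peroxisomal membrane, an acyl-CoA oxidase makes the first double bond and releases hydrogen peroxide, a bifunctional protein hydrates and dehydrogenates the product, and a thiolase splits off a shortened acyl-CoA. Loss of the pathway in humans causes diseases of brain white matter in which microglia take part. The 6 genes followed here, of 19938 measured in mouse microglia, were Abcd2, Abcd3, Abcd4, Acox3, Hsd17b4 and Acaa1a. Each had exactly 1 probe set with no other gene symbol. They had been grouped by function and chosen on the fall of Abcd2 in the comparison of Aβ42 alone with vehicle, with earlier results known. For that reason the comparison of Aβ42 alone with vehicle is given as a description, without a test, and supports nothing. Abcd4 bears the family's name, but its product is known from human cells to move cobalamin out of lysosomes, so that the peroxisomal label holds for 5 of the 6 genes.

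Microglia, the resident macrophages of the brain, were isolated from C57BL/6J pups on postnatal day 7 with beads against CD11b, cultured for 3 days and treated for 6 h. The 4 groups received oligomeric Aβ42, the peptide that aggregates in Alzheimer's disease, at 10 µM together with 100 nM AE1-329, which activates EP4, a receptor for prostaglandin E2; Aβ42 with the ethanol vehicle of the agonist (0.001%); AE1-329 with the DMSO vehicle of the peptide (0.4%); or both vehicles. Each group had 3 microarrays, 1 per litter of pups, so every treatment drew on the same 3 litters. Values are log2 expression, where 1 unit is 2-fold, errors of differences are standard errors of the limma fit, and a gene passed at an adjusted p under 0.05 over all 19938 genes. The number of arrays limits the precision, and in such bulk cultures fewer cells of a type and less RNA per cell cannot be told apart.

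The cultures carried the microglial label plainly. All 11 measured microglia markers lay above the median of all genes (7.41), against 1 of 10 neuron markers, 4 of 9 oligodendrocyte markers, 4 of 10 endothelial and mural markers, 6 of 10 astrocyte markers and 0 of 9 neutrophil and lymphocyte markers. The mean of the microglia markers on an array was 10.80 to 10.85 with Aβ42 and AE1-329, 10.94 to 10.99 with Aβ42 alone, 10.90 to 10.93 with AE1-329 alone and 11.04 with vehicle. The median standard deviation over genes was 0.063 to 0.066 in the treated groups, against 0.109 in vehicle, and vehicle replicate 1 lay apart from the other vehicle arrays for several of the 6 genes, as given below.

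Promoter windows were available for Abcd3, Acox3 and Acaa1a. They are shown because these members parted in their response, Acox3 being lower with Aβ42 while Abcd3 and Acaa1a differed little. For Abcd3 the first of its windows is given. Each is the 250 bases before the annotated start, 5′ to 3′ on the gene's strand, from RefSeq on GRCm38.p6. Capitals mark matches on either strand to the CCAAT box, the GC box GGGCGG, the nuclear receptor element AGGTCA, the E-box CACGTG, the core TGACG of the cAMP response element and the AP-1 site TGACTCA.
Acox3, chr5:35582784-35583033, plus strand: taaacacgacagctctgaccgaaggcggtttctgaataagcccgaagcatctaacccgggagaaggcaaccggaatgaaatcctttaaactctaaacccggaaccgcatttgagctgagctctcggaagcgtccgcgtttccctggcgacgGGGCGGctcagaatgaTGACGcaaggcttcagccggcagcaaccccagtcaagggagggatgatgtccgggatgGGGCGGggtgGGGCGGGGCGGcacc
Abcd3, chr3:121815303-121815552, minus strand: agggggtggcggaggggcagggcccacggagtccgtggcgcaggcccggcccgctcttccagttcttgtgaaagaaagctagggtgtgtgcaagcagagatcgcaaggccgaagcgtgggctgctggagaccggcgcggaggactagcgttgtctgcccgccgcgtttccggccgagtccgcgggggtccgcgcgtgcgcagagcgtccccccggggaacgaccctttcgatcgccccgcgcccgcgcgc
Acaa1a, chr9:119341044-119341293, plus strand: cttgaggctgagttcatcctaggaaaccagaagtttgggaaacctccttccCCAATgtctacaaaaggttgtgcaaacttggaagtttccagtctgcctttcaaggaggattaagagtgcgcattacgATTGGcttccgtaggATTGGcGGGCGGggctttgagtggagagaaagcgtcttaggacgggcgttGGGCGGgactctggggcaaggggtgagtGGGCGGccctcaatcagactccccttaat
The Acox3 window held 4 matches to GGGCGG, of which the last 2 overlap by 1 base, and 1 to TGACG. The Acaa1a window held 3 matches each to GGGCGG and CCAAT, and the Abcd3 window shown, 72.0% G and C, held none of the 6 motifs. The other Abcd3 window, 75.2% G and C, held 1 match to TGACG. It precedes a second annotated start and lies downstream of the first start, so this match falls inside the gene as annotated from there. Of 32851 such windows over all genes, 32.7% held GGGCGG, 33.8% CCAAT, 17.8% TGACG, 14.0% AGGTCA, 6.02% CACGTG and 4.46% TGACTCA. These matches describe only the letters in the windows.

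**Figure D1:**
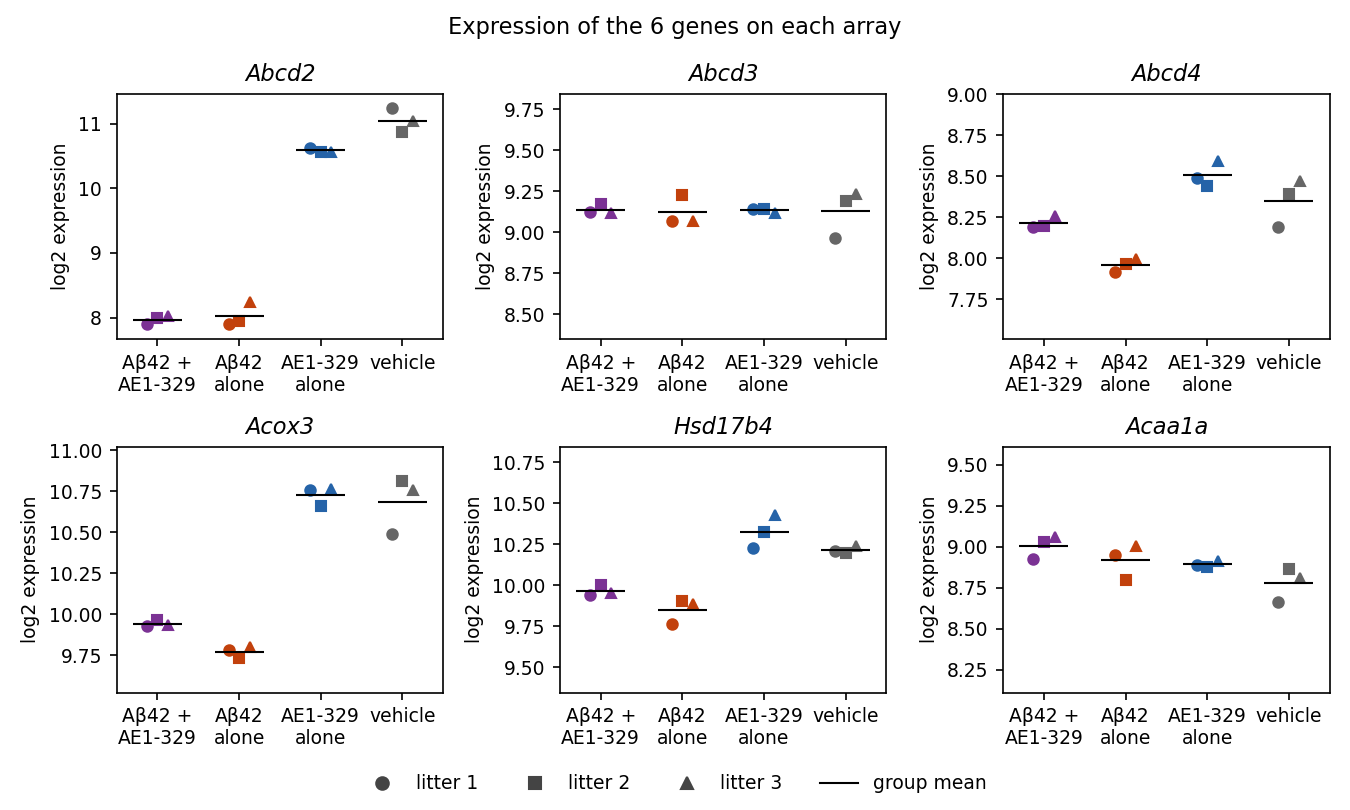
Log2 expression (y axis) of the 6 genes on each of the 12 arrays by treatment (x axis), where marker shapes stand for litters and lines for group means (n = 3). The y axis of Abcd2 spans more units than the others. All Abcd2 values with Aβ42 lie between 7.89 and 8.25 and all without it between 10.56 and 11.23.

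Among the transporters, Abcd2 carried the large response. Abcd2 encodes ALDRP, a peroxisomal importer of very-long-chain and polyunsaturated acyl-CoA. Its values were 7.90, 7.94 and 8.25 with Aβ42 alone, against 11.23, 10.87 and 11.04 with vehicle. The difference was -3.02 ± 0.10, or 8.10-fold lower, and only Rnf144b, a ubiquitin ligase gene, had a deeper one among all genes (-3.06), with Zfp36l1 next after Abcd2 (-3.00). This pair of groups chose the gene, so the test is given for the arrays with AE1-329, which are not in that pair. Earlier results of these data were known at the choice, so those arrays may not have been unseen. There Abcd2 was 7.89, 7.99 and 8.02 with Aβ42 and AE1-329, against 10.63, 10.57 and 10.56 with AE1-329 alone. No array of one group came near the other. Abcd2 fell by 2.62 ± 0.10, which is 6.14-fold (limma, adjusted p = 5.20e-10), with litter differences of -2.73, -2.58 and -2.54. Rgs2 (-3.44), a regulator of G protein signalling, was the one gene with a deeper change. The litters are the same as in the first pair of groups, although the cultures are not.

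With AE1-329 alone, Abcd2 lay below vehicle on all arrays. This comparison uses the vehicle arrays that the choice of Abcd2 used, so its p is not independent of that choice and supports nothing. The change was -0.46 ± 0.10, or 1.38-fold lower (limma, adjusted p = 0.00938), seen in 3 of 3 litters (-0.60, -0.30 and -0.47). On top of Aβ42, in a comparison that shares the Aβ42-alone arrays with the choice, the agonist made no difference that passed (-0.06 ± 0.10, 95% interval -0.28 to 0.15, adjusted p = 0.825), and the litters split, with 1 up and 2 down. The group means, lowest first, were 7.97 ± 0.065 for Aβ42 with AE1-329, 8.03 ± 0.19 for Aβ42 alone, 10.59 ± 0.037 for AE1-329 alone and 11.05 ± 0.18 for vehicle (SD, n = 3 each), and of neighbouring groups only those with Aβ42 overlapped. The difference between the 2 effects of Aβ42, with AE1-329 less without it, was 0.40 ± 0.14 (95% interval 0.09 to 0.70); it contains the comparison that chose Abcd2 and was not tested.

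Abcd3 encodes PMP70, an abundant protein of the peroxisomal membrane that carries branched-chain, dicarboxylic and bile acid precursor acyl-CoA. Its values were 9.12, 9.17 and 9.12 with Aβ42 and AE1-329, against 9.14, 9.14 and 9.12 with AE1-329 alone. With Aβ42 alone they were 9.07, 9.23 and 9.07, against 8.96, 9.19 and 9.23 with vehicle. All 4 groups overlapped, and the lowest array of the 12 was vehicle replicate 1. The difference with Aβ42 in AE1-329 treated cells was 0.0019 ± 0.071 (95% interval -0.15 to 0.16, adjusted p = 0.992), and that with Aβ42 alone was -0.0069 ± 0.071. The 95% intervals of the 3 tested comparisons of Abcd3 lay between -0.15 and 0.17, whereas the interval for Abcd2 with Aβ42 in AE1-329 treated cells ran from -2.83 to -2.40.

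Abcd4 changed less, and in both directions by agent. It had 8.19, 8.20 and 8.26 with Aβ42 and AE1-329, against 8.49, 8.44 and 8.59 with AE1-329 alone. It fell by 0.29 ± 0.07 (limma, adjusted p = 0.00824), a 1.23-fold change seen in 3 of 3 litters. With Aβ42 alone it had 7.92, 7.97 and 7.998, against 8.19, 8.39 and 8.47 with vehicle, a difference of -0.39 ± 0.07. Adding AE1-329 to Aβ42 raised it by 0.25 ± 0.07 (adjusted p = 0.0374), with litter differences of 0.27, 0.23 and 0.26. That call ended in 9 of 19 alternatives, among them leaving out any 1 of the 6 arrays compared (adjusted p up to 0.136). AE1-329 alone did not move it past the threshold (0.16 ± 0.07, adjusted p = 0.227). In the order of its levels Aβ42 alone stood lowest and clear of the rest, and the other neighbours overlapped. The cobalamin genes beside which Abcd4 works were mixed. Of 9 measured, 3 fell and 1 rose with Aβ42 in AE1-329 treated cells, where 12.2% of all genes fell and 9.77% rose. Mtr, methionine synthase, changed by -0.66 ± 0.05 (limma, adjusted p = 7.81e-07) and Mmadhc by 0.42 ± 0.05 (adjusted p = 3.00e-05). The other falls were Mmachc, which processes cobalamin in the cytosol (-0.45 ± 0.06), and the transport protein gene Tcn2 (-0.18 ± 0.05, adjusted p = 0.0189, lost in 3 of 19 alternatives).

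**Figure D2:**
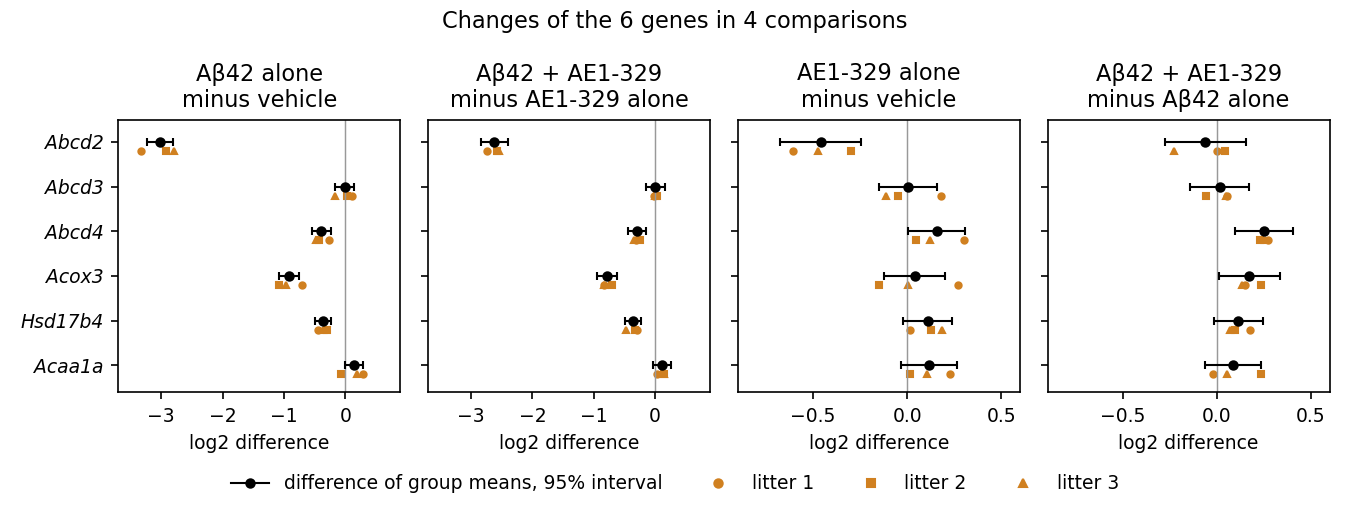
Log2 differences (x axis) of the 6 genes in the 4 comparisons; black points are differences of group means with 95% intervals of the limma fit (n = 3 arrays per group), and small symbols are the differences within each litter. The 2 left panels span a wider range than the 2 right ones. Abcd2 stands at -3.02 and -2.62 for Aβ42, while Abcd3 and Acaa1a stay within 0.14 of 0 there.

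Of the 3 enzyme genes, Acox3 and Hsd17b4 fell with Aβ42 in AE1-329 treated cells and Acaa1a did not pass. Acox3, which encodes an oxidase of branched-chain acyl-CoA and so the first step, had 9.93, 9.97 and 9.93 with Aβ42 and AE1-329, against 10.76, 10.66 and 10.76 with AE1-329 alone. The groups were far apart relative to their spread. Acox3 fell by 0.78 ± 0.07, which is 1.72-fold (limma, adjusted p = 4.02e-06), with litter differences of -0.83, -0.70 and -0.83. With Aβ42 alone it had 9.78, 9.73 and 9.80, against 10.49, 10.81 and 10.76 with vehicle, a difference of -0.92 ± 0.07. Vehicle replicate 1 was the lowest of its group, and without it the difference was -1.02. Every array with both agents lay above every array with Aβ42 alone, but the change of 0.17 ± 0.07 did not pass (adjusted p = 0.198). It passed with only the 6 arrays compared in the fit (0.0331) and without vehicle replicate 1 (0.0212). AE1-329 alone gave 0.04 ± 0.07 (adjusted p = 0.854). The order of its levels, lowest first, was Aβ42 alone, both agents, vehicle and AE1-329 alone, and only the groups without Aβ42 overlapped.

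Hsd17b4 encodes the D-bifunctional protein, which takes both straight and branched chains through the middle of the cycle. It had 9.94, 10.00 and 9.95 with Aβ42 and AE1-329, against 10.23, 10.32 and 10.43 with AE1-329 alone. It fell by 0.36 ± 0.06, or 1.28-fold (limma, adjusted p = 0.000627), in 3 of 3 litters. With Aβ42 alone it had 9.76, 9.90 and 9.89, against 10.21, 10.20 and 10.24 with vehicle, a difference of -0.37 ± 0.06. The 2 differences for Aβ42 thus lay 0.0052 ± 0.085 apart. AE1-329 gave 0.11 ± 0.06 both alone and on top of Aβ42, and neither passed (adjusted p = 0.353 and 0.323), although 3 of 3 litters were higher each time. The order of its levels was that of Acox3, again with overlap only between the groups without Aβ42.

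Acaa1a encodes a thiolase of the last step. It had 8.93, 9.03 and 9.06 with Aβ42 and AE1-329, against 8.89, 8.88 and 8.92 with AE1-329 alone. The groups did not overlap, with the treated one higher, but the difference of 0.11 ± 0.07 did not pass (adjusted p = 0.328). With Aβ42 alone it had 8.95, 8.80 and 9.01, against 8.66, 8.86 and 8.81 with vehicle, a difference of 0.14 ± 0.07 with overlapping groups. AE1-329 gave 0.12 ± 0.07 by itself (adjusted p = 0.396) and 0.09 ± 0.07 on top of Aβ42 (adjusted p = 0.565). Mouse has a close copy, Acaa1b, with a probe set of its own, whose 12 values ran from 5.15 to 5.56 and which passed in none of the 3 tested comparisons (adjusted p from 0.309 to 0.998). In the order of the Acaa1a levels vehicle stood lowest and did not overlap with AE1-329 alone above it, and the other neighbours overlapped. Whether the probe sets share signal was not tested.

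Counted together by limma, 4 of the 6 genes fell and 0 rose with Aβ42 in AE1-329 treated cells (4 had an unadjusted p under 0.05), where 12.2% of all genes fell and 9.77% rose. Groups did not overlap for 5 of the 6, against 40.1% of all genes, and the median change of the 6 was -0.33 against 0.01 over all genes. With Aβ42 alone against vehicle the groups did not overlap for 4 of the 6, beside 35.0% of all genes, from which nothing is read since the choice used it. AE1-329 alone lowered 1 of the 6 and raised 0 (2 had an unadjusted p under 0.05), where 5.45% of all genes fell and 4.71% rose, and groups did not overlap for 2 of the 6, against 22.9%. Added to Aβ42 it raised 1 and lowered 0 (2 had an unadjusted p under 0.05), where 5.99% rose and 5.04% fell, and groups did not overlap for 3 of the 6, against 32.0%. The last 2 pairs of groups share the vehicle and the Aβ42-alone arrays with the pair that chose the genes.

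**Figure D3:**
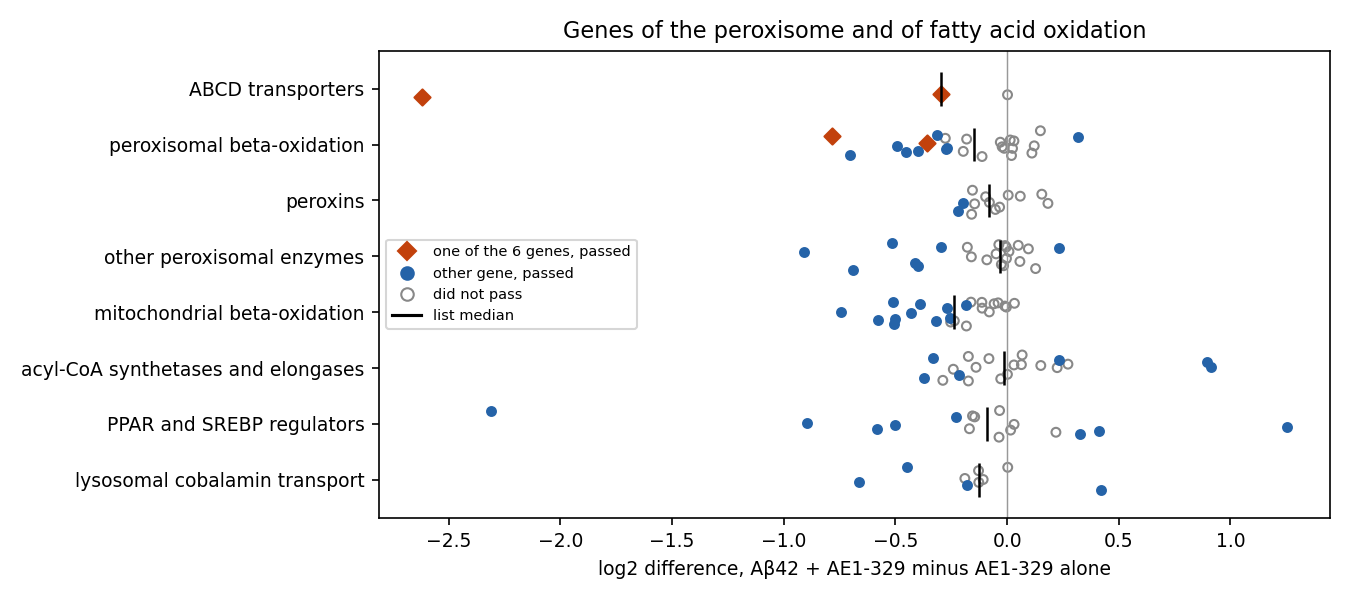
Log2 difference (x axis) between Aβ42 with AE1-329 and AE1-329 alone for the genes of 8 lists (y axis, 1 point per gene, jittered vertically); filled symbols passed limma's test, diamonds are those of the 6 genes that passed, and black lines are list medians. Abcd2 at -2.62 and Lpin1 at -2.31 lie far left of the other points.

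In the same comparison, where 12.2% of all genes fell and 9.77% rose, 24 genes of peroxisomal beta-oxidation were measured. Of these, 9 fell, 1 rose and the other 14 missed the threshold, with a median of -0.15 against 0.01 over all genes. Acox3 and Hsd17b4, already counted among the 6 genes, are in this list and among its falls, so the list is not separate from them. Crot, the peroxisomal carnitine octanoyltransferase that readies shortened chains for export, fell by 0.71 ± 0.08 (9.44 with Aβ42 and AE1-329, 10.15 with AE1-329 alone, limma, adjusted p = 1.35e-05). Acbd5, a tether of peroxisomes to the endoplasmic reticulum, fell by 0.49 ± 0.08 (adjusted p = 0.000298), and Scp2, the sterol carrier and thiolase gene, by 0.45 ± 0.07 (adjusted p = 0.000247). Ehhadh, the other bifunctional enzyme, fell by 0.27 ± 0.08 (adjusted p = 0.0332), a call lost in 7 of 19 alternatives. The lone rise was Eci2, an enoyl-CoA isomerase, at 0.32 ± 0.09 (adjusted p = 0.0192), named after its values were seen and lost in 3 of 19 alternatives.

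Of 13 peroxins measured, which build the organelle, 2 fell, 0 rose and 11 did not pass, a share of falls near the 12.2% of all genes. The falls were Pex11a, which drives peroxisome division (-0.22 ± 0.07, adjusted p = 0.0345), and Pex10, of the import receptor ubiquitin ligase (-0.20 ± 0.06, adjusted p = 0.0360). Both calls ended in 8 of 19 alternatives. Pex5, the receptor for matrix proteins, did not pass with Aβ42 (0.18 ± 0.07, adjusted p = 0.102), but AE1-329 raised it by 0.54 ± 0.07 alone and by 0.55 ± 0.07 on top of Aβ42 (adjusted p = 0.000327 and 0.000267). Of 22 other peroxisomal enzymes and membrane proteins 6 fell, 1 rose and 15 did not pass with Aβ42 in AE1-329 treated cells. Of all genes, 12.2% fell and 9.77% rose there. Pxmp4 (-0.91 ± 0.10), the NADP isocitrate dehydrogenase Idh1 (-0.69 ± 0.06), the phytanoyl-CoA hydroxylase Phyh (-0.52 ± 0.09) and Mpv17 (-0.41 ± 0.06) were among the falls, and the rise was catalase, Cat (0.23 ± 0.05, limma, adjusted p = 0.00609). The list counts Mpv17, but its peroxisomal label is in doubt and nothing is read from it. The product of Phyh prepares phytanic acid for the peroxisomal route on which Acox3 acts.

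With Aβ42 in AE1-329 treated cells 12.2% of all genes fell and 9.77% rose, and the counts of this paragraph stand beside these shares. Mitochondrial beta-oxidation, the parallel pathway, had 11 of 23 genes lower and 0 higher, with a median of -0.24. Cpt1a, the gate of fatty acid entry into mitochondria, fell by 0.74 ± 0.05 (adjusted p = 1.21e-07), Acot2 by 0.58 ± 0.05, Hadh by 0.51 ± 0.06 and Acad11 by 0.51 ± 0.06. Of 20 acyl-CoA synthetases and elongases 3 rose and 3 fell, near the shares of all genes. In this list 0 fell without replicate 1 of Aβ42 with AE1-329 and 1 without replicate 3 of AE1-329 alone. With the replicate block 5 fell, and without vehicle replicate 1 the number that rose was 6. The rises were led by Acsl5 (0.91 ± 0.07) and Acsl4 (0.89 ± 0.06), which activate long-chain and polyunsaturated fatty acids. The elongase Elovl1 rose by 0.23 ± 0.06 (adjusted p = 0.00906) and the dehydratase Hacd1 fell by 0.33 ± 0.08 (adjusted p = 0.00966), which did not pass without replicate 1 of Aβ42 with AE1-329 (0.0542). Of 16 regulators 5 fell and 3 rose. Lpin1, a phosphatidate phosphatase and nuclear coactivator of PPARα, fell by 2.31 ± 0.08, Pparg by 0.90 ± 0.15 and the retinoid receptor Rxra by 0.58 ± 0.07, while Nr1h3, which encodes LXRα, rose by 1.25 ± 0.13. Of 11 microglia markers in the same comparison 3 fell, 2 rose and 6 did not pass. P2ry12 fell by 1.06 ± 0.11 and Cx3cr1 by 0.43 ± 0.10, and Ptprc rose by 0.64 ± 0.09. Of 10 endothelial and mural markers 2 fell, Kdr by 1.14 ± 0.10 and Pecam1 by 0.31 ± 0.08, with a mean of the list on an array of 7.35 to 7.56 with Aβ42 and AE1-329, against 7.48 to 7.69 with AE1-329 alone. Of 9 oligodendrocyte markers 2 fell, with a mean of the list of 7.43 to 7.48 with Aβ42 and AE1-329, against 7.46 to 7.60 with AE1-329 alone. What part these marker changes have in the values of the 6 genes was not tested.

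AE1-329 alone raised 1 of the 24 genes of peroxisomal beta-oxidation and lowered 0, near the 4.71% of all genes that rose, namely Scp2 (0.25 ± 0.07, adjusted p = 0.0300), and with the litter as a block 2 rose. On top of Aβ42 it raised 1 and lowered 0, near the 5.99% of all genes, namely Crot (0.31 ± 0.08, adjusted p = 0.0178), a call lost when replicate 3 of Aβ42 with AE1-329, or replicate 1 or 2 of Aβ42 alone, was left out (adjusted p up to 0.0903). The Scp2 call was lost in 8 of 18 alternatives, and on top of Aβ42 Scp2 gave 0.07 ± 0.07 (adjusted p = 0.671). Ehhadh gave 0.13 ± 0.08 and 0.12 ± 0.08 in these comparisons (adjusted p = 0.439 and 0.503), and Cat gave -0.03 ± 0.05 and 0.08 ± 0.05 (adjusted p = 0.824 and 0.457). Of the 22 other peroxisomal genes the agonist raised 3 alone and 4 on top of Aβ42, and lowered 0 each time. Of all genes 4.71% and 5.99% rose. Pxmp4 rose both alone (0.65 ± 0.10, adjusted p = 0.00118) and on top of Aβ42 (0.49 ± 0.10, adjusted p = 0.00719). Hacl1 (0.37 and 0.45) and Gstk1 (0.27 and 0.26) also rose in both. Their calls for AE1-329 alone were lost with only the 6 arrays compared (limma, adjusted p = 0.0542 and 0.0650).

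**Figure D4:**
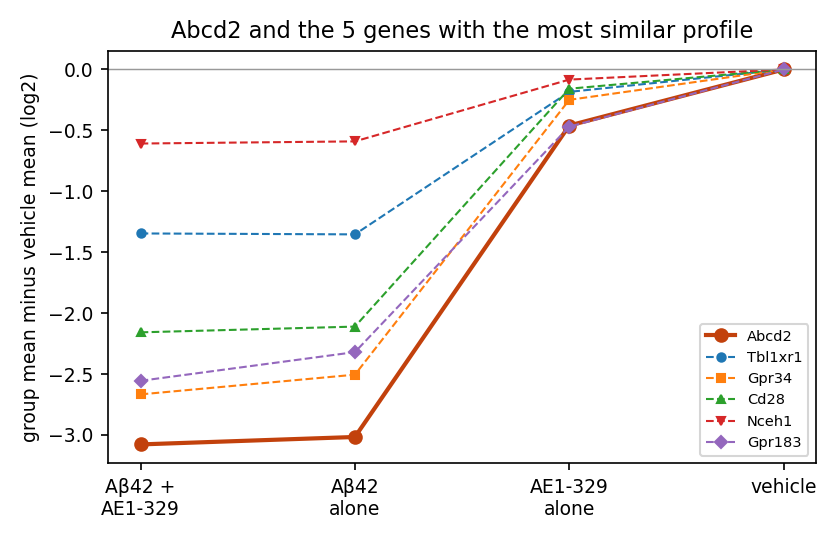
Group means of Abcd2 and of the 5 genes whose 12 values correlated best with it, each minus its own vehicle mean (y axis, log2 units), by treatment (x axis; n = 3 arrays per group). All 6 lines sit low in both groups with Aβ42 and dip slightly with AE1-329 alone.

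Over the 12 arrays, the genes most like Abcd2 were Tbl1xr1 (Pearson r = 0.997), Gpr34 (0.996), Cd28 (0.994), Nceh1 (0.993) and Gpr183 (0.993). Their changes with Aβ42 in AE1-329 treated cells ran from -0.53 for Nceh1 to -2.42 for Gpr34, beside -2.62 for Abcd2. Acox3 was closest to Arl11 (0.996), Il6ra (0.995) and Tmem86a (0.995), Hsd17b4 to Tk2 (0.986), Nicn1 (0.986) and Txndc16 (0.979), and Abcd4 to Cdk20 (0.992), Gba2 (0.986) and AB124611 (0.981). The closest genes to Abcd3 and Acaa1a had lower coefficients, with Polh (0.879), Rab34 (0.862) and Vmn1r198 (0.858) for Abcd3 and Mad2l2 (0.925), Zdhhc12 (0.908) and Rundc1 (0.897) for Acaa1a. Among the 6 genes themselves Abcd2 correlated with Acox3 at 0.952, with Hsd17b4 at 0.889 and with Abcd4 at 0.753. With Abcd3 the coefficient was -0.032 and with Acaa1a -0.64. Abcd4 correlated with Hsd17b4 at 0.911 and with Acox3 at 0.898. These coefficients describe arrays that share litters and 4 treatments.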

How the data were processed

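The deposited values are log2 expression values from Affymetrix Mouse Gene 1.0 ST arrays, 1 per probe set and array. Per the submitters' processing notes RMA and Partek 6.5 were involved, in roles not stated. That the scale is log2 follows from the range, 2.79 to 13.95, and the array medians of 6.97 to 7.05. Genome build and filters: not given in the sources used here. Signal over background is unknown. No value column lacked a sample. Of 35556 probe sets 21789 carried 1 gene symbol, 1621 several and 12146 none, and 21698 of the first kind matched a RefSeq gene ID. The probe set with the highest mean stood for a gene, which left 19938 genes without a filter on dim ones. RefSeq tables of GRCm38.p6 gave names and promoter windows.

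The limma package (3.58.1, R 4.3.3) fitted 1 mean per group over the 12 arrays (8 residual and 4.54 prior degrees of freedom), two-sided, with Benjamini-Hochberg adjustment over all genes at 0.05, after a check on simulated data. Members and lists were chosen with earlier results of these data known. Named were the 6 members, and Ehhadh, Scp2, Cat and Pex5 throughout. Also named were the genes whose 12 values correlated best with a member, without predicted genes, olfactory receptors and microRNAs. Names were further drawn from the 4 genes of each list with the smallest p for Aβ42 with AE1-329 against AE1-329 alone. Some of these in the peroxin and marker lists were left unnamed. Other names were chosen after their values were seen. Some list genes were not analysed here.

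Replicate numbers pair the arrays because the series' design text ties them to litters. Same-numbered arrays deviated together, with a mean correlation of 0.33 over 18 pairs (0.0044 to 0.54, 17 above 0.1). Alternatives were the replicate block, genes brighter than the median gene, averaging a gene's probe sets, all probe sets tested, quantile normalization again, a robust prior with a trend, only the 6 arrays compared, and each array left out in turn.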

Additional observations from a re-analysis of the deposited data

How the results depend on the processing

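The falls of Abcd2, Acox3, Hsd17b4 and Abcd4 with Aβ42 in AE1-329 treated cells, and of Abcd2 with AE1-329 alone, passed in 19 of 19 alternatives (adjusted p at most 3.62e-08, 4.97e-05, 0.00431, 0.0433 and 0.0384). The fall of Abcd2 with AE1-329 alone uses vehicle arrays of the choice in every alternative, so its passes support nothing. With the replicate block, Abcd2 changed by -2.62 with Aβ42 in AE1-329 treated cells and by -0.46 with AE1-329 alone, and no member's call changed. The count of members higher when AE1-329 was added to Aβ42 was 1, but 0 over all probe sets or after quantile normalization again, 2 with only the 6 arrays compared, and 0 to 2 with an array left out. The count of all genes that passed for AE1-329 alone was 2026, against 970 with only its 6 arrays in the fit. The same setting gave 5222 against 4386 for Aβ42 in AE1-329 treated cells and 2955 against 2199 for AE1-329 added to Aβ42, and the cause was not tested. Signs turned only for changes that never passed. For Abcd3 these were -0.0026 (Aβ42 in AE1-329 treated cells) and -0.011 (AE1-329 added to Aβ42) after quantile normalization again. With an array left out, Abcd3 ran from -0.016 to 0.012 and from -0.013 to 0.068 in these comparisons and from -0.077 to 0.057 for AE1-329 alone, Acox3 from -0.059 (without vehicle replicate 1) to 0.10 for AE1-329 alone, and Abcd2 from -0.13 to 0.048 (without Aβ42 replicate 3) for AE1-329 added to Aβ42. Of the wider lists with Aβ42 in AE1-329 treated cells, peroxisomal oxidation had 8 to 11 genes lower and mitochondrial oxidation 8 to 13 over 18 alternatives, and peroxins 0 to 3. With the block, AE1-329 added to Aβ42 raised 4 synthetase and elongase genes, against 1.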
